A study of Mus musculus with 16 samples.

Results

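MicroRNAs encoded inside the mouse Hox gene clusters were followed through 16 small RNA libraries. The members are 7 mature miRNAs, miR-10a-5p, miR-10a-3p, miR-10b-5p, miR-10b-3p, miR-196a-5p, miR-196b-5p and miR-615-3p, chosen by name with earlier results of these data known. They are 7 of the 2274 miRNA names that the deposited tables hold once hairpin copy numbers are merged (2510 names as listed). Other arms cut from the same hairpins (miR-196a-1-3p, miR-196a-2-3p, miR-196b-3p and miR-615-5p) are described beside them but are no members.

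The cells were C2C12, a mouse myoblast line that leaves the cell cycle and fuses into myotubes when serum is lowered, and the growth protocol calls them PAX7 NEG. Control cells, labelled wild type, were sampled as populations 1 and 2. Triple knockout cells (tKO) carry deletions of both miR-1a hairpins (miR-1a-1, miR-1a-2) and of miR-206, which are enriched in skeletal muscle, and were sampled as clones 1 and 2. The libraries were made from growth medium with 20% fetal bovine serum near confluency (GM) or after 3 days in medium with 2% horse serum (DM3). This gives 4 groups of 4 libraries, by genotype and medium, and every group contains 2 lines (populations or clones) with 2 biological replicates each, so the 4 libraries are not 4 independent lines, a tKO line is a single clone, and p-values measure the spread between these libraries.

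MicroRNAs are cut from hairpin precursors, and one strand is loaded into an Argonaute protein, which it guides to mRNAs that pair with its seed (bases 2 to 8). Hox genes encode homeodomain transcription factors that set position along the body axis, and their clusters also hold the miR-10 and miR-196 families and miR-615. Transcripts of Hox genes are themselves known targets of miR-10 and miR-196, miR-196 and Hoxb8 being the textbook pair. Cell lines tend to keep the Hox expression pattern of the body region they came from.

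The 7 mature sequences, from RefSeq (GRCm38.p6), are shown because the members fall into families that share a seed and that a single base tells apart. Capitals mark the seed.
miR-10a-5p: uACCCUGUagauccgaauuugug
miR-10b-5p: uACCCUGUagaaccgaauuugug
miR-10a-3p: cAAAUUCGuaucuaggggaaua
miR-10b-3p: cAGAUUCGauucuaggggaaua
miR-196a-5p: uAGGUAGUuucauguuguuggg
miR-196b-5p: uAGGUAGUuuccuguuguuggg
miR-615-3p: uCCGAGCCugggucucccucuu

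Counted from 1 at the 5′ end, miR-10a-5p and miR-10b-5p differ by U12A (miR-10a-5p first) and share 22 of 23 bases. The pair miR-196a-5p and miR-196b-5p differs by A12C and shares 21 of 22 bases. In both pairs the single difference lies outside the seed. The passenger strands miR-10a-3p and miR-10b-3p differ by A3G, U9A and A10U, and the first of these lies inside the seed. Among 1679 mature names in the RefSeq table, no name outside the members holds any of these seeds.

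The hairpins lie in all 4 Hox clusters (GRCm38, GENCODE M21). Mir10a (ENSMUSG00000065519.1, chr11:96317165-96317274, plus strand) lies in the HoxB cluster, 992 bases from Hoxb4, and no transcript of its strand spans it. Mir10b (ENSMUSG00000065500.3, chr2:74726070-74726137, plus strand) lies in the HoxD cluster in an intron of 3 transcripts of Hoxd3 or Hoxd4. The same mature miR-196a-5p is cut from a pair of hairpins. Mir196a-1 (ENSMUSG00000065546.1, chr11:96265164-96265265, plus strand) lies in the HoxB cluster between genes, 6191 bases from Hoxb9. Mir196a-2 (ENSMUSG00000065488.2, chr15:102973350-102973434, plus strand) lies in the HoxC cluster in an intron of 1 Hoxc5 transcript, 1456 bases from Hoxc10. Mir196b (ENSMUSG00000065443.1, chr6:52230081-52230165, minus strand) lies in the HoxA cluster inside Hoxa9, overlapping an exon of 2 of 3 transcripts and lying in an intron of the other. Mir615 (ENSMUSG00000076010.1, chr15:103014910-103015001, plus strand) lies in the HoxC cluster in an intron of 2 Hoxc5 transcripts.

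The libraries held 112792 to 6543570 miRNA reads, and 3 counts correspond to 0.458 to 26.6 CPM, the depth-scaled read count. In 14 of the 16 libraries 80.4% to 90.9% of the reads matched the hairpin of a miRNA exactly. The tKO DM3 library of line 1 replicate 1, also the smallest, stood apart with 47.5%, and the control DM3 library of line 1 replicate 2 had 68.3%. The deleted miR-206-3p was at 837 to 1466 CPM (GM) and 19951 to 57442 CPM (DM3) among control libraries, against 0.808 to 15.5 (GM) and 0.960 to 70.9 (DM3) among tKO libraries. The 6 muscle markers that include it summed to 904 to 1523, 23112 to 59672, 45.2 to 74.9 and 156 to 1082 CPM in the same order. The blood list had reads for 4 of 5 markers and summed to at most 16.8 CPM. Of the epithelial list all 5 markers had reads, and in DM3 they summed to 2.51 to 11.9 CPM among control and 10.9 to 31.7 CPM among tKO libraries (14.8 to 22.5 and 16.2 to 40.8 CPM in GM). The liver miRNA miR-122-5p was at 3.90 to 27.6 CPM among control and 17.8 to 75.5 CPM among tKO libraries in GM, and at most 8.96 CPM in DM3. The endothelial and pluripotent lists summed to at most 27.9 and 15.04 CPM. The neuron list reached 940 to 2880.3 CPM, nearly all of it miR-128-3p, which muscle also expresses, with miR-124-3p at 0 in all 16 libraries and miR-9-5p at 52.4 to 156 CPM in control and 0 to 21.6 in tKO. Their part in the member results was not tested. These are bulk libraries, in which fewer cells expressing a miRNA and fewer copies per cell cannot be told apart.

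Together the members took 1.18% to 4.22% of the reads of a library. miR-615-3p was the most read by far, with 728925 reads in all libraries, followed by miR-10a-5p with 218400, miR-196a-5p with 91838 and miR-196b-5p with 67123. The tables listed 1894.5 reads under miR-10b-5p, 1657 under miR-10a-3p and 12 under miR-10b-3p. Thus the guide strands from HoxA, HoxB and HoxC were read in every library, miR-10a-3p in all but 1, and the HoxD members had few reads. Read counts of different miRNAs also reflect how well each one is ligated and amplified, so this order is one of reads, not of molecules.

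Most of the reads named miR-10b-5p were miR-10a-5p by sequence. Of the 1894.5 reads listed under miR-10b-5p, 77.5% matched the Mir10a hairpin and only 11.3%, or 214 reads, matched Mir10b. A further 9.08% were under 16 nt, too short to place. The most read form under that name, the most read form of miR-10b-5p itself and the leading forms of miR-10a-5p are printed because they differ at base 12 and at both ends. In the first pair the capital marks base 12, which tells the family members apart, and in the others capitals mark bases 2 to 8.
listed under miR-10b-5p, matches Mir10a: taccctgtagaTccgaatttgtgt
listed under miR-10b-5p, matches Mir10b: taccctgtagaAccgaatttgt
miR-10a-5p, most read form: tACCCTGTagatccgaatttgt
miR-10a-5p, annotated form: tACCCTGTagatccgaatttgtg
miR-10a-5p, starting 1 base later: aCCCTGTAgatccgaatttgtg

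The first of these is the annotated miR-10a-5p plus the next base of its own hairpin, 24 nt long, and its name changed from library to library. In 11 libraries the tables listed it under miR-10b-5p (643 reads) and in the other 5 under miR-10a-5p (1772 reads), in none under both. Of all 6248.5 reads that lie in Mir10a and run past the annotated end, 16.4% were named miR-10b-5p, but per library this share ran from 0.357% to 100%. It was at least 98.1% in 8 libraries, at most 2.498% in 5, and 29.6% to 40.2% in the other 3. A level read from the name miR-10b-5p therefore moves with the naming of a miR-10a-5p form.

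**Figure D1:**
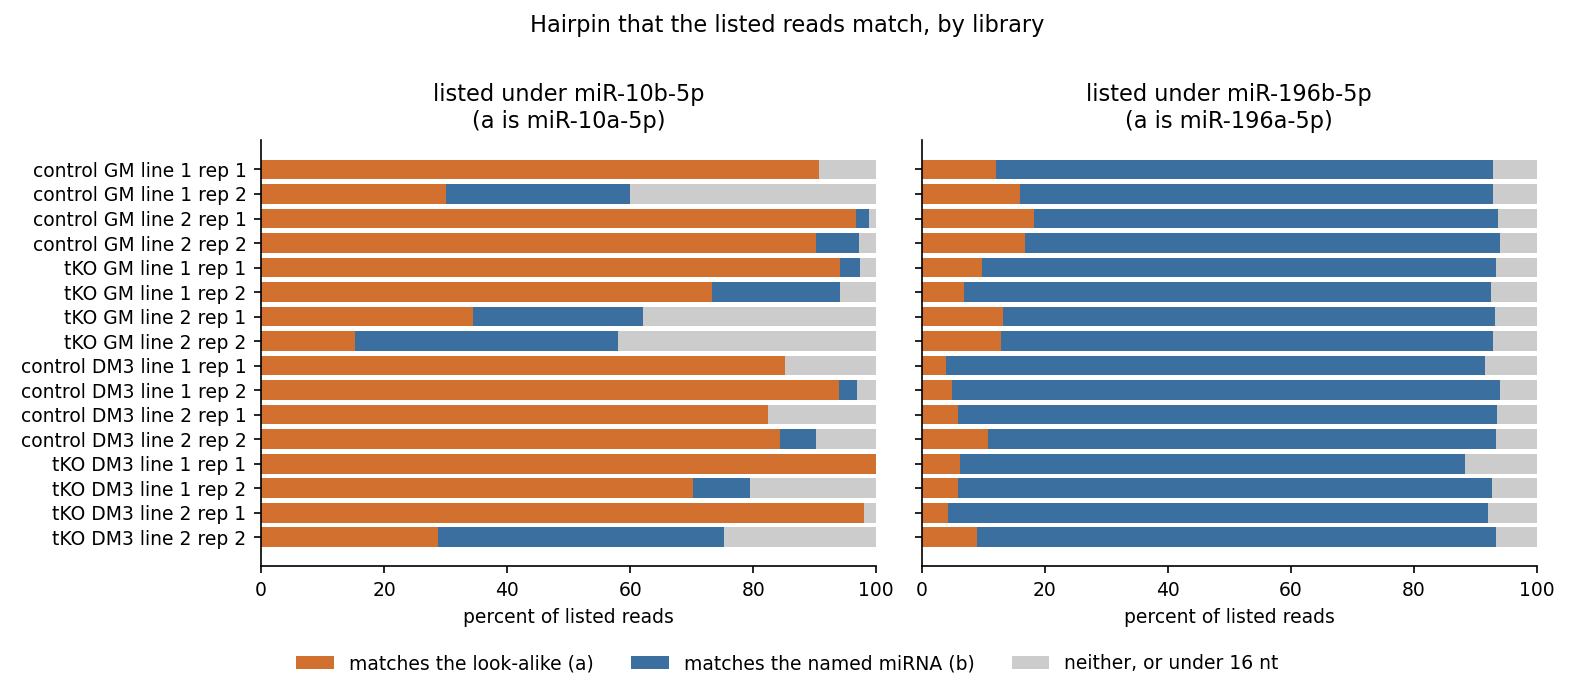
Percent of the reads listed under miR-10b-5p (left) and miR-196b-5p (right) in each of the 16 libraries (rows) that match the hairpin of the a member of the family (orange), of the named b member (blue), or neither (grey, with reads under 16 nt). Between 15.2% and 100% of the miR-10b-5p reads of a library match miR-10a-5p, against 3.97% to 18.2% of the miR-196b-5p reads that match miR-196a-5p.

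By name, the TMM-scaled level of miR-10b-5p was 88.4, 14.3, 119 and 68.4 CPM in control GM (in the order line 1 replicate 1, line 1 replicate 2, line 2 replicate 1, line 2 replicate 2, which is kept below). It was 229, 36.4, 18.8 and 19.8 CPM in tKO GM. In DM3 it was 76.8, 126, 39.2 and 35.9 CPM in control and 60.1, 67.4, 188 and 26.3 CPM in tKO. The 4 groups overlapped and each varied more than 3-fold. Counting only reads that match Mir10b, the levels fell to 0, 4.38, 2.57 and 4.78 CPM in control GM and 7.37, 10.6, 5.35 and 9.69 in tKO GM. In DM3 they were 0, 6.28, 0 and 2.504 in control and 0, 7.72, 0 and 13.5 in tKO. On this count the GM groups did not overlap, tKO being higher, as for 13.9% of 423 names, but the difference did not pass the test (log2 fold change 1.16 ± 0.60 SE, edgeR quasi-likelihood, adjusted p by Benjamini-Hochberg = 0.419). The passenger miR-10b-3p had 12 reads over 7 libraries, all under 16 nt, and was not tested.

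The same occurred, to a lesser degree, in the miR-196 family. Of the 67123 reads listed under miR-196b-5p, 81.2% matched Mir196b and 12.02% matched miR-196a, nearly all in a single form that carries the miR-196a base at position 12 and an additional A, the next base of Mir196a-2. Capitals mark base 12 and, where a base follows the mature end, that base.
listed under miR-196b-5p, matches Mir196a-2: taggtagtttcAtgttgttgggA
listed under miR-196a-5p, matches Mir196a-1: taggtagtttcAtgttgttgggC
annotated miR-196b-5p: taggtagtttcCtgttgttggg

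The form ending in A had 8014.5 reads under the name miR-196b-5p, 11.9% of that name. Its reads were divided equally between the names: in all 16 libraries the untailed reads of the form under miR-196b-5p equalled the reads of the annotated miR-196a-5p recorded with an added A, 6324.5 under each name in all. The hairpin match returns both portions to miR-196a-5p. Over all forms, 6515 reads of each name were such divided reads, 7.09% of miR-196a-5p and 9.71% of miR-196b-5p. For miR-196b-5p the divided share was 10.7% to 14.6% in control GM and 2.98% to 9.36% in control DM3, which did not overlap. Of 8 tests of divided shares that one had the smallest two-sided exact permutation p, 0.0286, and none passed after adjustment (0.152). The annotated miR-196b-5p had 31433.5 reads, or 46.8%. The misnamed share was 12.2% to 18.2% (GM) and 3.97% to 10.7% (DM3) among control libraries, which did not overlap. Among tKO libraries it was 6.83% to 13.2% (GM) and 4.27% to 9.04% (DM3). For miR-10a-5p, miR-10a-3p, miR-196a-5p and miR-615-3p, 92.8% to 93.3% of listed reads matched the named miRNA. The tables print each sequence without its non-templated 3′ bases, which are recorded in separate columns, so matched reads include tailed ones. Levels below are therefore given for reads as listed, and the results they turn on are set beside the count of reads that match the named hairpin exactly (hairpin match).

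miR-10a-5p, the HoxB guide strand, had higher fitted levels in tKO than in control cells in both media. Its difference between genotypes passed in edgeR for hairpin-matched reads and not in the main fit of listed reads. In GM its TMM-scaled level was 2219.7, 4317, 3617 and 4320.3 CPM in control and 7765, 5402, 10619 and 10762 CPM in tKO. Every tKO library lay above every control library, and the fitted level was 2.39-fold higher (log2 fold change 1.25 ± 0.48 SE). This did not pass the edgeR quasi-likelihood test over 807 names (Benjamini-Hochberg adjusted p = 0.358), in which no member passed and 9 names did (1.12%). By hairpin match the levels were 2498, 4146, 3356 and 4041 CPM in control against 7573, 6985, 10227 and 11482 in tKO. On that count the difference passed the edgeR test (log2 fold change 1.37 ± 0.37, Benjamini-Hochberg adjusted p = 0.0369), where 1 of 6 members tested and 5.2% of 423 names passed. It passed in no other of 13 alternatives, over which the log2 fold change ran from 0.79 to 1.654 and adjusted p up to 0.651. For listed reads it never passed with a library left out (edgeR, adjusted p from 0.185 to 0.726).

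In DM3 miR-10a-5p was at 504, 1490.2, 1352 and 3119 CPM in control and at 1885, 6321, 3919 and 8448 CPM in tKO. The groups overlapped, because the lowest tKO library, the one with 47.5% matched reads, lay below the highest control library. Within each line replicate 2, the deeper library, lay above replicate 1, and the main fit holds no term for replicate. The log2 fold change was 1.67 ± 0.48 (edgeR quasi-likelihood, Benjamini-Hochberg adjusted p = 0.133), in a comparison with 7 calls (0.867%) and none among the members. Without that tKO library it was 2.02 and passed (edgeR, adjusted p = 0.0207), and without the control library of line 2 replicate 2 it was 2.32 and passed (edgeR, adjusted p = 0.0372). By hairpin match it was 1.496 ± 0.37 and passed (edgeR, adjusted p = 0.0237, with 3 of 6 members and 3.78% of 423 names called). DESeq2's Wald test also called it, at 1.74 (adjusted p = 0.01995). It passed in 4 of 13 alternatives in all, with log2 fold changes from 1.496 to 1.781 and adjusted p up to 0.453 over the 13. Of 16 fits with a library left out it passed only in the 2 given above (edgeR, adjusted p up to 0.427).

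The passenger strand miR-10a-3p, far less abundant, lay the same way. In GM it was at 22.6, 27.9, 28.0 and 37.4 CPM in control and 65.0, 28.8, 88.3 and 68.1 CPM in tKO, which overlap through the tKO library of line 1 replicate 2. In DM3 it was at 0, 8.66, 20.8 and 25.4 CPM in control, where 3 counts in the shallowest library correspond to 12.1 CPM, and at 40.1, 62.5, 44.8 and 65.0 CPM in tKO. All 4 tKO libraries in DM3 lay above all 4 controls. The log2 fold change was 1.09 ± 0.51 in GM (edgeR quasi-likelihood, Benjamini-Hochberg adjusted p = 0.588) and 1.87 ± 0.55 in DM3 (adjusted p = 0.139), neither of which passed. By hairpin match the GM difference was 1.19 ± 0.40, without overlap between the groups, and did not pass (edgeR, adjusted p = 0.105). Over 13 alternatives the GM difference ran from 0.474 to 1.581 and never passed. The DM3 difference by hairpin match was 1.83 ± 0.45 and passed (edgeR, adjusted p = 0.0237). It passed in 5 of 13 alternatives in all, DESeq2 giving the lowest adjusted p, 0.00738, with log2 fold changes from 1.70 to 2.24 and adjusted p up to 0.572 over the 13. For listed reads the DM3 difference passed without the tKO library of 47.5% matched reads, at 2.01 (edgeR, adjusted p = 0.0378).

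miR-615-3p, the HoxC miRNA, had lower fitted levels in tKO than in control cells. In DM3 its difference passed in edgeR by hairpin match and not in the main fit of listed reads. In GM its level was 39353, 25947, 21355 and 21627 CPM in control and 16502, 15607, 20968 and 19179.9 CPM in tKO. In DM3 it was 26537, 28112, 29254 and 20882.5 CPM in control and 5326, 12077.5, 16281 and 18499.9 CPM in tKO. In both media every tKO library lay below every control library on this TMM scale. As a share of all reads the GM groups overlapped, at 1.69% to 3.74% in control and 1.29% to 1.88% in tKO. The DM3 shares did not, at 1.98% to 3.76% and 0.707% to 1.74%. On the TMM scale, non-overlap was seen for 2 of 6 members in GM (miR-10a-5p and miR-615-3p, against 8.92% of all 807 names). In DM3 it was seen for 2 of 6 (miR-10a-3p and miR-615-3p, against 4.71%).

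The log2 fold change of miR-615-3p was -0.58 ± 0.32 in GM (edgeR quasi-likelihood, Benjamini-Hochberg adjusted p = 0.781) and -1.01 ± 0.32 in DM3 (adjusted p = 0.214), and neither passed. Without the control GM library of line 1 replicate 1 the GM value was -0.35 (edgeR, adjusted p = 0.984). By hairpin match the DM3 levels were 36748, 42459, 35832 and 23080.0 CPM in control and 8893, 13961, 16676 and 19148 CPM in tKO. That is a log2 fold change of -1.23 ± 0.28, which passed (edgeR, adjusted p = 0.0135). The DM3 difference passed in 4 of 13 alternatives in all, with log2 fold changes from -1.29 to -0.75 over the 13. In GM the hairpin-matched groups overlapped, at -0.49 ± 0.28 (edgeR, adjusted p = 0.484). Without the tKO DM3 library of 47.5% matched reads the difference for listed reads in DM3 shrank to -0.66 (edgeR, adjusted p = 0.166), more than a 1.5-fold change in the estimate.

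The miR-196 members did not separate by genotype. In GM, miR-196a-5p was at 1652, 2822, 3822 and 3590.5 CPM in control and 3459, 1073, 3192 and 2663 CPM in tKO. Its log2 fold change for tKO over control was -0.20 in GM and 0.43 in DM3, with 95% intervals of -1.22 to 0.83 and -0.60 to 1.46. The DM3 value was 1.21 without the control library of line 2 replicate 2 and 0.77 without the tKO library of line 1 replicate 1. It was 0.28 without the control library of line 1 replicate 1 and 0.08 without the tKO library of line 2 replicate 2, and none of these passed (edgeR, smallest adjusted p = 0.239). For miR-196b-5p the GM levels were 1089, 1783, 1880.4 and 2178 CPM in control and 2125, 1473, 1943 and 2114 CPM in tKO. Its log2 fold change was 0.14 in GM and 0.52 in DM3. None of the 4 passed (edgeR quasi-likelihood, Benjamini-Hochberg adjusted p from 0.492 to 0.991), and the groups overlapped in each. Over the 6 members tested, the median log2 fold change of tKO over control was 0.10 in GM and 0.48 in DM3, beside 0.11 and 0.09 over all 807 names. By hairpin match the member medians were 0.77 in GM and 0.93 in DM3, beside 0.05 over all 423 names in both.

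**Figure D2:**
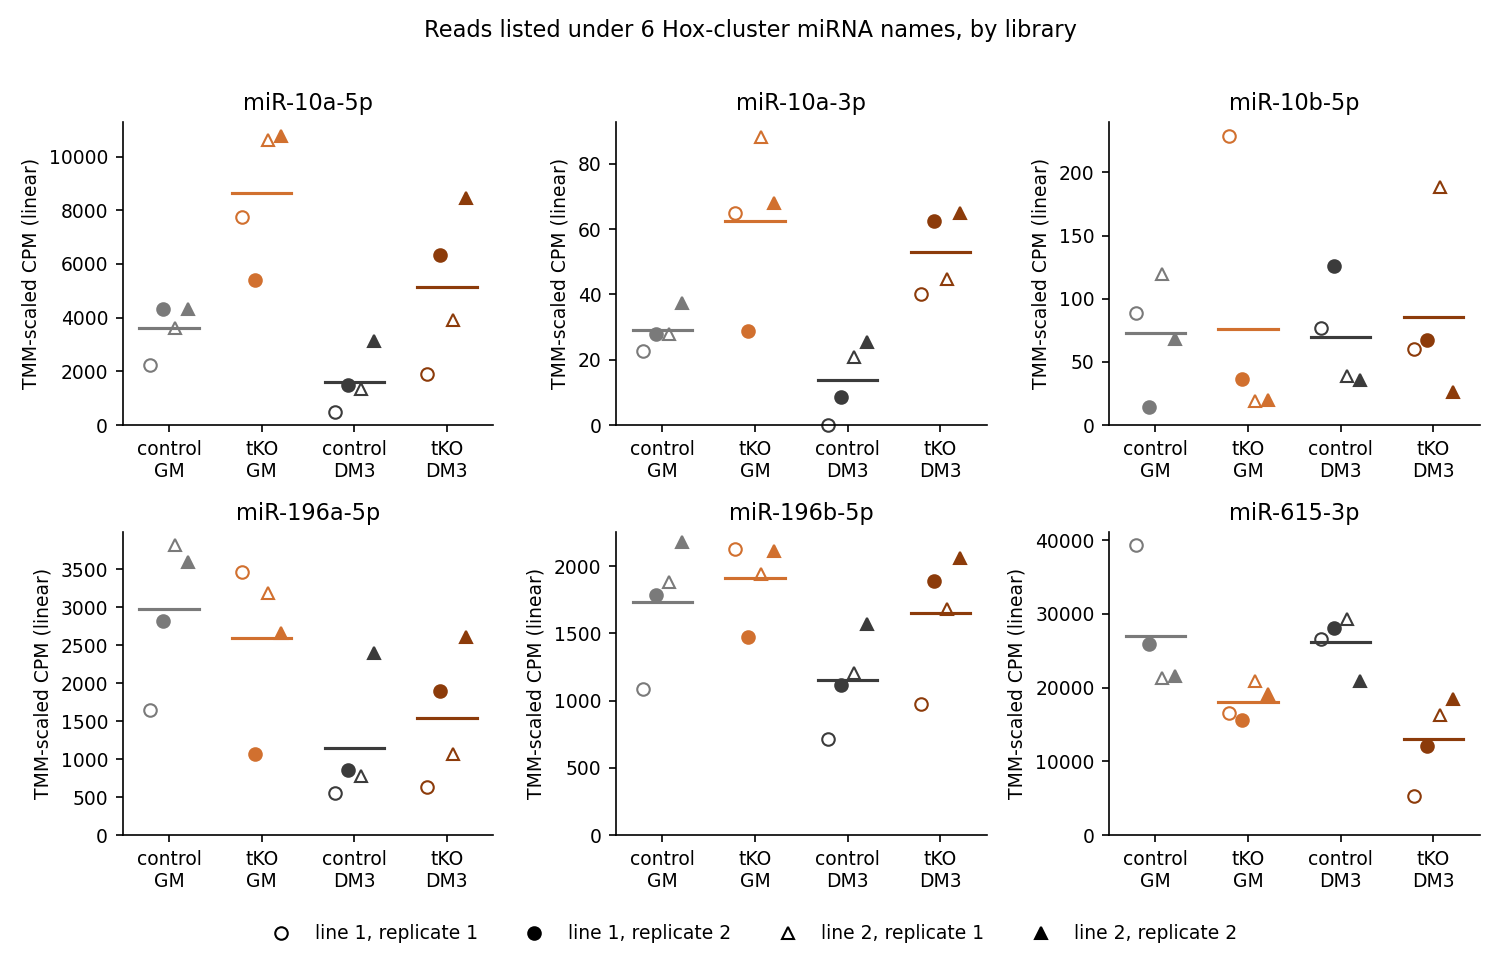
TMM-scaled CPM (linear axis from 0) of the reads listed under 6 member names in the 16 libraries, by group; circles are line 1, triangles line 2, open symbols replicate 1, filled symbols replicate 2, bars the mean of 4. miR-10a-5p in GM and miR-615-3p in both media separate tKO from control without overlap, and miR-10b-5p in tKO GM ranges from 18.8 to 229.

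In the differentiation of control cells 1 member passed the test. miR-196a-5p went from the 1652 to 3822 CPM of control GM to 558, 854, 780.1 and 2399 CPM in control DM3. The log2 fold change was -1.37 ± 0.50 (edgeR quasi-likelihood, Benjamini-Hochberg adjusted p = 0.0480), in a comparison where 27.6% of the 807 names were called (11.8% as lower). The 1 of 6 members called is below the 27.6% in either direction and above the 11.8% called lower. The groups overlapped through the control DM3 library of line 2 replicate 2, at 2399 CPM. Without it the fall was 2.12 on the log2 scale (adjusted p = 0.00602), and in 11 of the 16 fits that leave out a library the call was lost (edgeR, adjusted p up to 0.152). By hairpin match it was -1.04 ± 0.40 and not called (edgeR, adjusted p = 0.0574), as in 6 of 13 alternatives in all.

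The other members did not pass in control differentiation in the main edgeR fit. miR-10a-5p had a log2 fold change of -1.16 ± 0.48 (edgeR quasi-likelihood, Benjamini-Hochberg adjusted p = 0.0783) and miR-10a-3p one of -0.98 (adjusted p = 0.190). The miR-10a-5p difference passed with a coefficient per line and medium (-1.27, edgeR adjusted p = 0.0441) and with a replicate block (edgeR adjusted p = 0.0306). It also passed without the control DM3 library of line 2 replicate 2 (-1.77, edgeR adjusted p = 0.0141) and without the tKO library of 47.5% matched reads (-1.21, adjusted p = 0.0362). By hairpin match it was -0.74 and did not pass (edgeR, adjusted p = 0.139). miR-196b-5p was at 717, 1115, 1205 and 1568 CPM in control DM3, a log2 fold change of -0.59 (edgeR, adjusted p = 0.177), which was 0.03 when only reads matching Mir196b were counted. miR-615-3p had a log2 fold change of -0.05 (edgeR, adjusted p = 0.945) for listed reads and 0.37 by hairpin match (adjusted p = 0.357). The median over the 6 members was -0.79, beside 0.02 over all names (-0.51 beside -0.06 by hairpin match).

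In tKO cells no member passed between GM and DM3 in the main edgeR fit, where 19.7% of names did. miR-196a-5p passed in 1 of 13 alternatives, over which its log2 fold change ran from -1.937 to 0.301. In the main fit the log2 fold change was -0.75 for miR-10a-5p, -0.20 for miR-10a-3p, -0.74 for miR-196a-5p, -0.21 for miR-196b-5p and -0.47 for miR-615-3p. The smallest Benjamini-Hochberg adjusted p was 0.294 (edgeR quasi-likelihood). With a library left out the value ran from -1.137 to -0.446 for miR-10a-5p and from -0.447 to 0.01 for miR-10a-3p. For miR-196a-5p, miR-196b-5p and miR-615-3p the ranges were -1.184 to -0.487, -0.383 to -0.018 and -0.725 to -0.189. None of these passed. In tKO DM3 miR-196a-5p was at 628, 1895, 1062 and 2602 CPM. miR-196b-5p was at 976, 1889.8, 1679 and 2059.6 CPM there. Both overlapped their tKO GM levels, and in each the library of 47.5% matched reads was the lowest of the group. The median over the 6 members was -0.34, beside 0.01 over all names (-0.23 beside -0.08 by hairpin match). The tKO and control differentiation effects were compared through the interaction, in which edgeR called 0 of 807 names (37 at an unadjusted p under 0.05, none a member) and DESeq2 also called 0. For every member tested the adjusted p of the interaction in edgeR was at least 0.937 for listed reads and at least 0.815 by hairpin match.

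**Figure D3:**
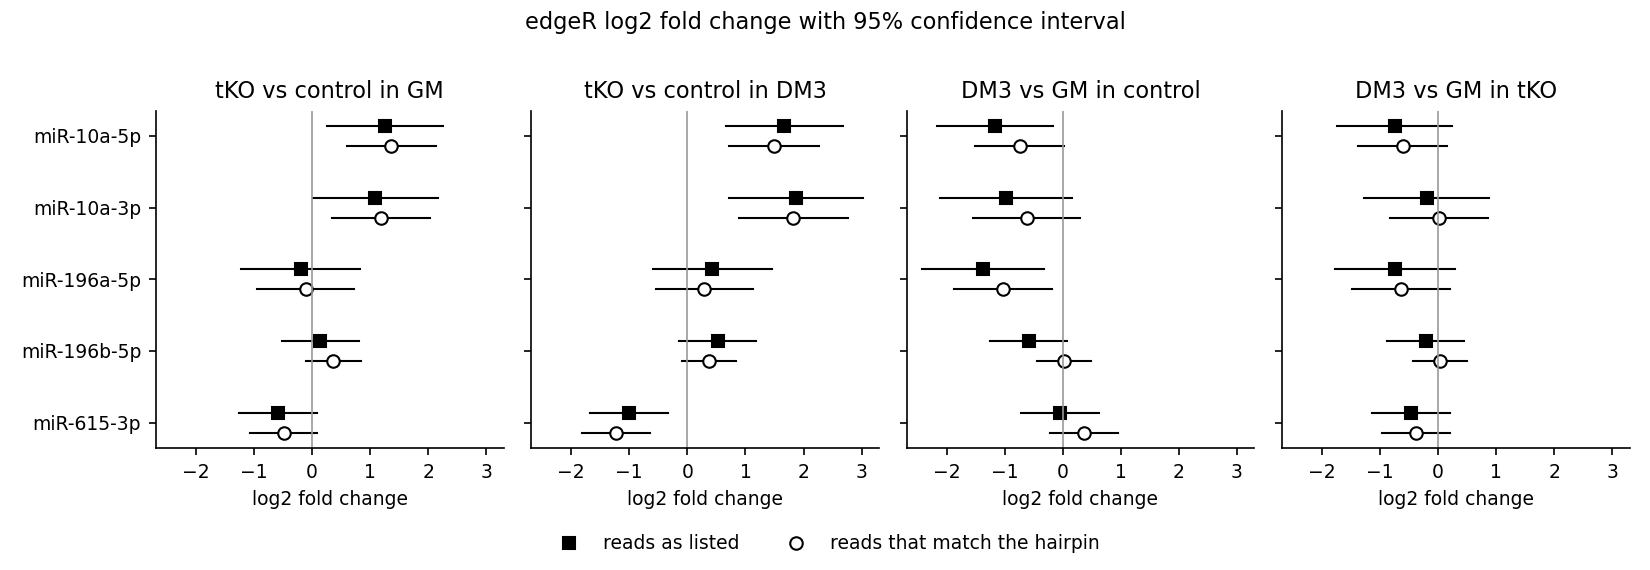
Log2 fold change (point) with its 95% interval (line) from edgeR for 5 members in 4 comparisons, for reads as listed (filled squares) and for reads that match the hairpin (open circles). The miR-10a arms sit to the right and miR-615-3p to the left of 0 in tKO against control. The intervals are not adjusted for the number of names tested. Those of miR-10a-5p do not reach 0 by either count, in GM (1.25 and 1.37) or DM3 (1.67 and 1.496). In these fits its difference passed after adjustment by hairpin match only.

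Between the lines of a genotype no member passed. Between the tKO clones, where edgeR called 11 of 807 names (1.36%), miR-615-3p was higher in clone 2 by 0.66 ± 0.26 on the log2 scale (edgeR quasi-likelihood, Benjamini-Hochberg adjusted p = 0.254). Without the tKO DM3 library of line 1 replicate 2 this was 1.05 and passed (edgeR, adjusted p = 0.0137). Between the control populations edgeR called 0 names (32 at an unadjusted p under 0.05, 1 of them a member) and DESeq2 called 0. That member was miR-10a-3p, with a log2 difference of 1.21 ± 0.51 for population 2 over 1 (edgeR, adjusted p = 0.807). It was 4.57 without the control DM3 library of line 1 replicate 2 (edgeR, adjusted p = 0.645), where population 1 in DM3 is left with the library at 0, and at least 0.90 with any other library left out.

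The hairpins that yield miR-196a-5p can be told apart by their passenger strands and by the base that follows the mature sequence. The passenger of Mir196a-1 (HoxB) and that of Mir196a-2 (HoxC) are unlike in sequence, seed in capitals.
miR-196a-1-3p: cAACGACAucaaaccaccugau
miR-196a-2-3p: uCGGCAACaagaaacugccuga

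miR-196a-1-3p stood out in tKO clone 1. In GM its TMM-scaled level was 6.17, 1.63, 3.33 and 1.30 CPM in control and 26.8, 30.1, 3.89 and 4.53 CPM in tKO. In DM3 it was 2.85, 0.96, 4.62 and 2.82 CPM in control and 0, 28.0, 1.28 and 5.63 CPM in tKO, where the 0 is the shallowest library, in which 3 counts correspond to 26.6 CPM before scaling. Thus 3 of the 4 libraries of clone 1 were at 26.8 to 30.1 CPM, and the other 13 libraries were at 0 to 6.17. In reads, clone 1 had 200, clone 2 had 55, and control populations 1 and 2 had 13 and 22.

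For miR-196a-1-3p the log2 difference of clone 2 from clone 1 was -2.48 ± 0.61 (edgeR quasi-likelihood, Benjamini-Hochberg adjusted p = 0.0606). DESeq2 called it (-2.50, adjusted p = 0.0192), and it passed in edgeR without the shallowest library (-2.67, adjusted p = 0.0135). Without the tKO DM3 library of line 1 replicate 2 the sign of the fitted difference turned (1.76). Clone 1 in DM3 is then represented by the library at 0, in which 3 counts correspond to 26.6 CPM before scaling. In GM both libraries of clone 1 (26.8 and 30.1 CPM) lay above both of clone 2 (3.89 and 4.53 CPM). The clone difference in GM alone was not tested. The tKO to control difference in GM was 2.75 ± 0.88 and did not pass (edgeR, adjusted p = 0.211).

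The other products of the hairpins did not follow. miR-196a-2-3p had 129 and 183 reads in control populations 1 and 2 and 102 and 113 in tKO clones 1 and 2, and its clone difference was -0.37 ± 0.57 (edgeR, adjusted p = 0.765). Among miR-196a-5p reads extended by the next hairpin base, 642 carried the C of Mir196a-1 and 14649 the A of Mir196a-2, the portions recorded as an A tail included. Pooled over the libraries of a line, the share with the C was 4.16% and 4.23% in control populations 1 and 2 and 3.98% and 4.26% in tKO clones 1 and 2. Single libraries ran from 0% to 7.14% in control population 1 and from 0% to 6.36% in clone 1, the ends at 0 resting on 20 and 15 extended reads. An A added after cutting of the Mir196a-1 product has the same sequence as the Mir196a-2 extension, so these shares are not shares of the hairpins.

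**Figure D4:**
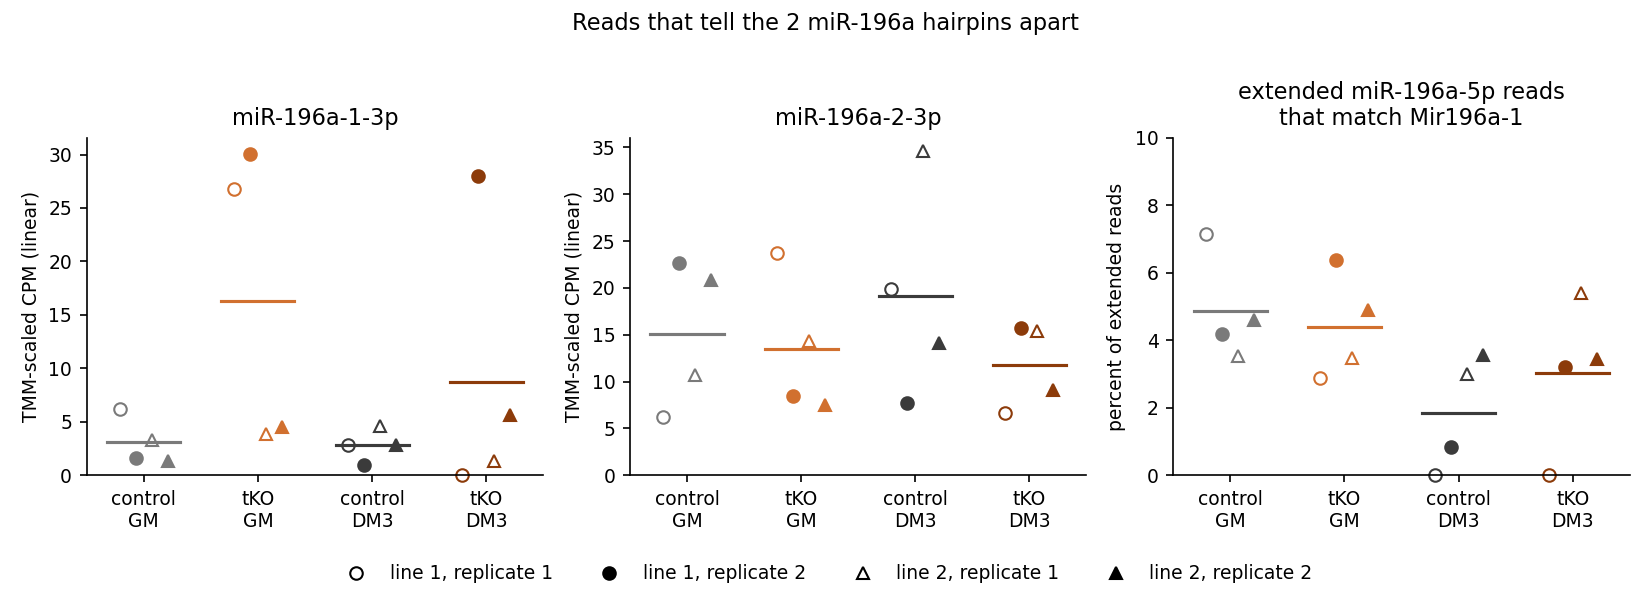
TMM-scaled CPM of the passenger strands miR-196a-1-3p (left) and miR-196a-2-3p (middle), and percent of extended miR-196a-5p reads that carry the Mir196a-1 base (right, axis from 0 to 10), by group; circles are line 1, triangles line 2, open symbols replicate 1, filled symbols replicate 2, bars the mean of 4. The circles of tKO stand at 26.8 to 30.1 CPM for miR-196a-1-3p in 3 of 4 libraries, with no such gap in the other panels.

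The guide arm took nearly all reads of the hairpins whose arms can be set against each other. Of the Mir10a reads, 218400 were named for the 5p arm and 1657 for the 3p arm, so that miR-10a-3p made up 0.753%. The log2 ratio of miR-10a-5p to miR-10a-3p was 6.90 ± 0.32 (SD, n = 4) in control GM, 7.15 ± 0.32 in tKO GM, 6.89 ± 0.71 in control DM3 and 6.36 ± 0.72 in tKO DM3. None of 5 tests of arm ratios passed (two-sided exact permutation tests over 70 assignments, smallest p = 0.0857, Benjamini-Hochberg adjusted 0.429). Mir615 was the reverse, with 728925 reads for the 3p and 539 for the 5p arm. Mir196b had 67123 reads for the 5p and 42 for the 3p arm, and miR-196b-3p was too rare to test.

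The minor arm miR-615-5p depended on which reads were counted. As listed, control libraries had 14.4, 17.5, 20.7 and 21.9 CPM in GM and 14.2, 35.6, 11.5 and 11.98 CPM in DM3, a log2 fold change of -0.01 (edgeR quasi-likelihood, Benjamini-Hochberg adjusted p = 0.989). In control GM 80.6% of these reads lay in Mir615, in control DM3 19.8%, or 16 of 81 reads, and 58 of the 81 were under 16 nt. By hairpin match the level was 12.2, 13.6, 16.7 and 16.5 CPM in GM against 0, 1.57, 3.04 and 4.59 in DM3. These do not overlap, as for 32.4% of 423 names, and the log2 fold change of -2.21 ± 0.48 passed (edgeR, adjusted p = 0.00158), as for 29.6% of those names. That DM3 level rests on 0, 1, 1 and 11 reads, and the guide strand miR-615-3p had no such difference in control cells (0.37 by the same count). For tKO over control in DM3, miR-615-5p changed sign, from -0.89 as listed (edgeR, adjusted p = 0.457) to 0.87 by hairpin match (adjusted p = 0.390). In tKO differentiation it was -0.32 as listed (edgeR, adjusted p = 0.673) and -0.70 by hairpin match (adjusted p = 0.222). None of these passed.

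The 5′ end sets the seed, and the miR-10 members varied there, miR-10a-5p with by far the most reads. Between 17.7% and 35.5% of its reads without mismatch began 1 base later, which moves bases 2 to 8 by one position, as in the form aCCCTGTAgatccgaatttgtg (29433 reads, 13.5% of the name). The share that began at the annotated base was 63.9%, 68.1%, 67.5% and 66.5% in control GM and 82.3%, 73.4%, 77.5% and 72.7% in control DM3. It was 70.4%, 70.1%, 67.2% and 67.4% in tKO GM and 69.5%, 72.0%, 71.5% and 71.9% in tKO DM3. All control DM3 libraries were above all other 12 libraries.

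The share of miR-10a-5p reads with the annotated start rose by 9.98 percentage points on average in control differentiation (66.5 ± 1.8% to 76.5 ± 4.4%, SD, n = 4, two-sided exact permutation p = 0.0286) without passing adjustment over the 16 tests of this measure (0.0914). In DM3 it was 5.24 points lower in tKO (exact permutation p = 0.0286, adjusted 0.0914). With a library left out this difference ran from -6.495 to -3.304 points. Between GM and DM3 of tKO the share differed by 2.46 points (exact permutation p = 0.0857). With 4 against 4 libraries 0.0286 is the smallest p the test can give. None of the 16 tests passed after adjustment, and 5 of them had groups that did not overlap. The control DM3 libraries with the highest shares rest on few reads, the highest on 158.

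The miR-196 and miR-615 guides were nearly invariant at the 5′ end. The annotated start held for 99.2% to 99.9% of miR-615-3p reads, 97.2% to 100% of miR-196a-5p reads and at least 99.96% of miR-196b-5p reads. For miR-615-3p it was lower in DM3 than in GM without overlap, by 0.27 points in control and 0.44 points in tKO (both exact permutation p = 0.0286, adjusted 0.0914). In DM3 the miR-615-3p share was also lower in tKO than in control without overlap (-0.17 points, exact permutation p = 0.0286, adjusted 0.0914). The annotated start held for 66.1% to 88.1% of miR-10a-3p reads in 11 libraries and for 52.4% to 80% of miR-10b-5p reads in the 5 libraries with enough reads.

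The 3′ ends varied in the abundant members. Reads recorded with non-templated bases after the printed sequence made up 19.2% of miR-10a-5p reads, 27.5% of miR-196a-5p, 21.5% of miR-196b-5p and 29.6% of miR-615-3p. Among reads whose printed sequence lies in the hairpin the shares were 19.1%, 27.4%, 19.8% and 28.6%. For miR-196a-5p the tails include the divided reads, whose A is also the next base of Mir196a-2, and among undivided reads 22.1% were tailed. In the other 3 guides at most 0.123% of single added bases equalled the next hairpin base. The added base was mostly A for miR-196a-5p (61.9% of tailed reads, with 25.8% T, or 49.0% and 34.5% among undivided reads) and miR-196b-5p (52.1%, with 24.9% T). For miR-10a-5p it was A or C (49.7% and 40.6%), and for miR-615-3p likewise (35.2% and 31.1%). The share of T, the base that terminal uridyl transferases add, was 1.93% for miR-10a-5p and 10.8% for miR-615-3p.

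Tailed shares were lower in DM3 in control cells for 3 members without overlap. miR-615-3p went from 33.8%, 31.8%, 31.0% and 29.5% in control GM to 27.4%, 26.8%, 28.2% and 27.5% in control DM3, a difference of -4.03 points. Part of it is G: a single added G stood on 5.93%, 4.48%, 1.12% and 1.07% of its reads in control GM. In control DM3 that share was 1.19%, 1.10%, 1.03% and 1.28%. The excess of G lay in the control GM libraries of line 1, and its cause was not tested. miR-196a-5p went from 27.3% to 28.9% in control GM to 20.7% to 25.9% in control DM3 (-5.05 points, or -4.28 among undivided reads), and miR-196b-5p from a mean of 21.9% to 19.1% (-2.86 points, or -4.83 among undivided reads). Each had the smallest two-sided exact permutation p, 0.0286, and none of 17 tests passed after adjustment (0.121). With a library left out the miR-196b-5p difference ran from -3.395 to -1.764 points. The remaining guide, miR-10a-5p, was also lower, by 4.23 points with overlap (exact permutation p = 0.0571, adjusted 0.139). Tailed shares of names outside the members were not computed. A difference common to many miRNAs therefore cannot be told from one of these members. In tKO cells only miR-615-3p had groups that did not overlap, at 29.8 ± 1.0% in GM and 27.6 ± 0.9% in DM3 (exact permutation p = 0.0286, adjusted 0.121). The difference between these tKO and control effects was not tested.

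The untailed miR-615-3p reads also ended at different bases. Most were 1 base shorter than the annotated miRNA, as in the most read form tCCGAGCCtgggtctccctct (317397 reads with or without a tail, 43.5% of the name, capitals marking bases 2 to 8). The share that reached the annotated end was 33.9%, 32.9%, 32.9% and 32.3% in control GM and 27.5%, 28.3%, 27.5% and 31.1% in tKO GM. In DM3 it was 31.7%, 30.0%, 28.1% and 31.9% in control and 24.1%, 22.9%, 25.02% and 25.9% in tKO. In both media tKO was below control without overlap. This measure was chosen after its values were seen and was not tested.

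**Figure D5:**
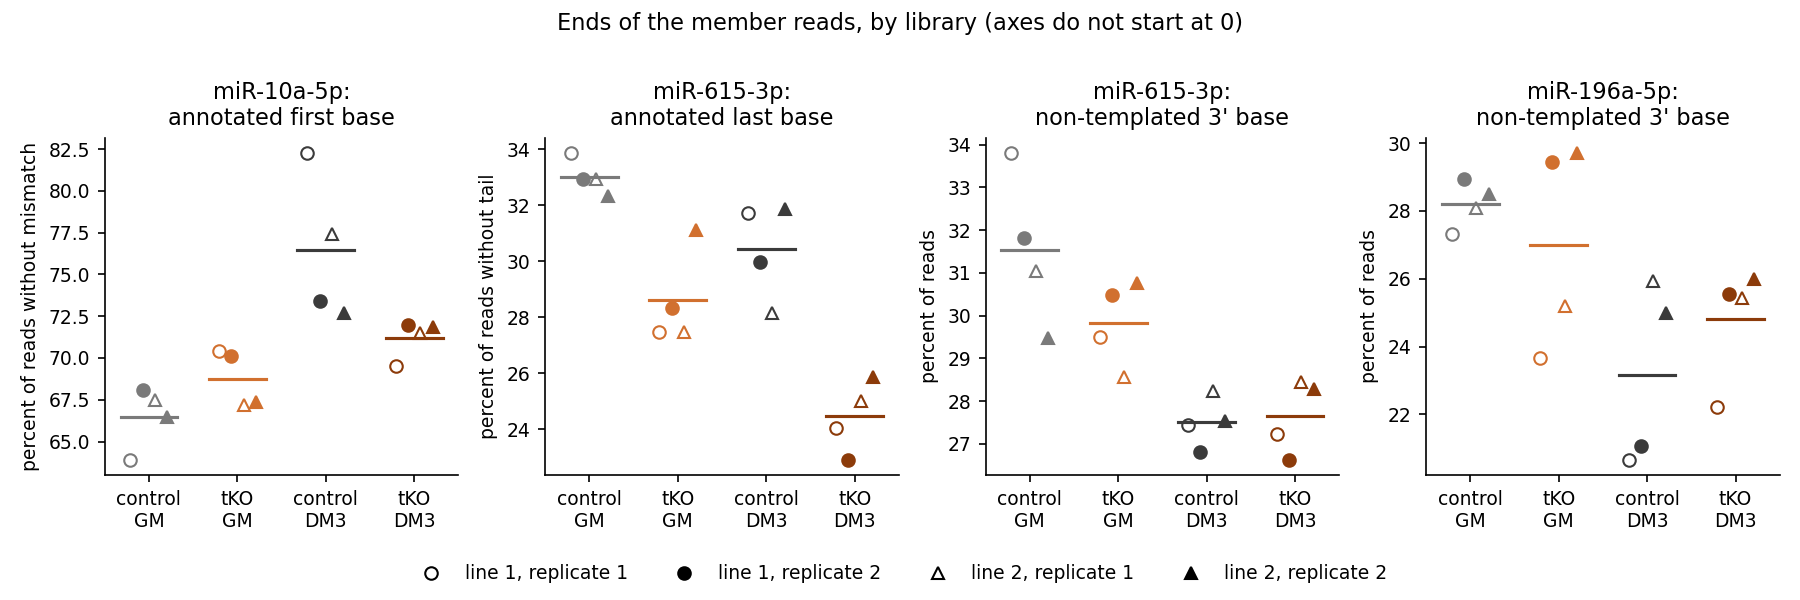
Percent of miR-10a-5p reads that begin at the annotated base, of untailed miR-615-3p reads that reach the annotated last base, and of miR-615-3p and miR-196a-5p reads with a non-templated 3′ base, by group; circles are line 1, triangles line 2, open symbols replicate 1, filled symbols replicate 2, bars the mean of 4, and the axes do not start at 0. The control DM3 libraries lie above all others for the miR-10a-5p start (72.7% to 82.3%), and the tKO DM3 libraries lowest for the miR-615-3p end (22.9% to 25.9%).

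Across the 16 libraries the members with at least 50 CPM had different companions among 312 non-member names of that level, as a description over libraries that share depth and group. The nearest to miR-10a-5p were miR-155-5p (Pearson r = 0.949 of log2 levels), miR-224-5p (0.942) and miR-151-5p (0.899). For miR-196a-5p they were let-7j-5p (0.979), let-7f-5p (0.970) and let-7i-5p (0.965). For miR-196b-5p they were miR-16-5p (0.953), miR-151-5p (0.948) and miR-26b-5p (0.945). miR-615-3p was nearest to miR-744-5p (0.859), miR-34b-3p (0.853) and miR-423-3p (0.846). The name miR-10b-5p had no close companion (miR-532-3p 0.620, miR-182-3p 0.482, miR-6239-3p 0.466).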

How the data were processed

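Small RNA libraries (size-selected for inserts of 15 to 50 nt, per the labels' protocols) were read from 16 deposited tables, made with unitas per the file headers and names; its version and the miRBase release are not given in the sources used here. The submitters' processing notes name cutadapt 1.15, STAR 2.5.4 and build mm10, with no role. The deposited values are expected counts per sequence and miRNA name, with no normalization; a read that fits several names enters each as a fraction, and non-templated 3′ bases stand in columns apart from the printed sequence. Members, lists and tests were chosen with earlier results of these data known.

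Expected counts were summed per name and library after merging hairpin copy numbers, rounded for the tests, and scaled to CPM of all listed reads. All libraries entered a fit in R 4.3.3 with edgeR 4.0.16 (filterByExpr by group, smallest count 10; TMM; robust quasi-likelihood F tests), with a coefficient per group, or per line and medium for line differences. Calls had a Benjamini-Hochberg adjusted p under 0.05 over all names tested. The common dispersion had a square root of 0.477. The hairpin match counts sequences of at least 16 nt that lie exactly in the miRNA's hairpin and start within 3 bases of the mature start. Hairpins came from the RefSeq table (5 of 6) or GENCODE M21 (6 of 6), and all 7 mature sequences from RefSeq. Shares were compared where a library had at least 20 reads, by two-sided exact permutation tests. Intervals of fold changes come from the edgeR fits; floors (3 counts) cover counting error only, since reads carry no molecular identifiers. The code was tested on simulated counts.

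Every member and other arm is named whatever its values; likeness names the 3 non-members with the highest r. The 24-nt form, 3′ ends and miR-196a extensions were described after the data were seen. Alternatives covered scaling, filters, DESeq2 1.42.0, a replicate block, the reads counted, names as listed, each replicate number alone, line coefficients and each library left out. Divided reads are tailed reads of a member whose sequence with that base is listed in the same library under another member with an equal number of untailed reads.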

Additional observations from a re-analysis of the deposited data

Results flagged for a closer look

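In 4 of 64 groups of 4 libraries a single library lay far from the other 3, beyond Dixon's 95% critical value; chance would give about 1 in 20 groups. The level of reads listed under miR-10b-5p in tKO GM was 229 CPM in line 1 replicate 1, against 18.8 to 36.4 CPM in the others; in that library 94.1% of these reads match miR-10a-5p. miR-196a-5p in control DM3 was at 2399 CPM in line 2 replicate 2, against 558 to 854 CPM in the others. miR-615-5p in control DM3 was at 35.6 CPM in line 1 replicate 2, the library with 68.3% matched reads, against 11.5 to 14.2 CPM. The share of miR-196a-5p reads with a non-templated base in tKO DM3 was 22.2% in line 1 replicate 1, the shallowest library, against 25.4% to 25.997%.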

How the results depend on the processing

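For 60 fold changes, ratios and shares given in the text, 386 of 458 values under another processing and 875 of 960 with a library left out kept their direction and side of the threshold; 23 and 7 newly passed, 22 and 52 no longer passed, and 27 and 26 changed sign, none of these passing. The cause was not tested in any case. Depth limits miR-10b, miR-10a-3p and the passenger arms.

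The sign changes among these (log2 fold change) were as follows. For miR-615-5p in control differentiation: 0.004 with DESeq2 size factors and with DESeq2, 0.396 scaled by totals, 0.001 with names as listed and 0.212 with replicate 2 alone. For miR-615-3p there: 0.345 by totals, 0.223 without mismatches, 0.305 at 18 to 25 nt, 0.368 by hairpin match and 0.044 with replicate 2 alone. For miR-196b-5p there: 0.028 by hairpin match. In tKO differentiation the order is totals, no mismatch, 18 to 25 nt, hairpin match and replicate 2 alone. The values there were 0.104, 0.034, 0.083, 0.018 and 0.392 for miR-10a-3p, and 0.055, 0.014, 0.062, 0.026 and 0.159 for miR-196b-5p. In the same comparison miR-196a-5p was 0.301 with replicate 2 alone. Its lowest alternative there was -1.937, and it passed in 1 of the 13. In GM, tKO over control was 0.282 for miR-196a-5p with replicate 1 alone and -0.258 for miR-196b-5p with replicate 2 alone. The miR-10a arm ratio in control differentiation was 0.259 with a pseudocount of 0.5. Scaling by totals moved the median of all names by 0.37 in control and 0.23 in tKO differentiation, by 0.13 between genotypes in GM, and by -0.25 between lines.

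Calls over all names, tKO against control in GM (9): 15 without filter, 20 by DESeq2, 18 without mismatch, 15 at 18 to 25 nt, 22 by hairpin match, 2 with replicate 1 alone, 18 with line coefficients. In DM3 (7): 14, 19, 13, 20, 16, 1 and 15 in that order, and 70 with replicate 2 alone. Control differentiation (223): 136 at 18 to 25 nt, 125 by hairpin match, 85 with replicate 1 alone. tKO differentiation (159): 74 with replicate 2 alone. Interaction (0): 1 by hairpin match. Clones (11): 21 without filter, 36 by DESeq2, 20 with the replicate block.

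With a library left out, calls ranged from 5 to 16 in GM, 5 to 53 in DM3 (53 without tKO DM3 line 1 replicate 1), 0 to 1 for the interaction and 5 to 90 for the clones (90 without tKO DM3 line 1 replicate 2). Values that changed sign ranged from -0.368 to 0.070 (miR-196a-5p, GM), -0.013 to 0.278 (miR-196b-5p, GM), -0.227 to 0.094 (miR-615-3p) and -0.661 to 0.115 (miR-615-5p) in control differentiation, -0.447 to 0.010 (miR-10a-3p, tKO differentiation), -3.300 to 1.755 (miR-196a-1-3p, clones) and -0.672 to 0.164 (miR-196a-2-3p, clones). For the arm ratio in control differentiation the range was -0.204 to 0.330, for the miR-615-3p start in GM -0.027 to 0.022, and for the miR-196b-5p tail in tKO -0.874 to 0.316. The divided share in DM3, tKO minus control, ranged from -1.084 to 0.751 points (miR-196a-5p) and -1.313 to 0.814 (miR-196b-5p), and in GM from -1.0 to 0.114 (miR-196a-5p). Without mismatches it was 0.123 for miR-196a-5p in DM3, and 0.012 for miR-196b-5p in control differentiation.

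Over 551 names replicate numbers did not pair the libraries. Same-numbered libraries of different groups had a mean r of 0.101 over 48 pairs, the lowest -0.46. Differently numbered ones had a mean r of -0.095. For miR-10a-5p and miR-196a-5p in DM3, however, replicate 2 lay above replicate 1 in every line. Replicate 2 was also the deeper library of each line and medium, so replicate and depth cannot be told apart. With the replicate block miR-10a-5p passed in control differentiation (-1.26, edgeR adjusted p = 0.0306) and miR-196a-5p stayed called (-1.46, adjusted p = 0.0302), while miR-99b-5p did not pass in tKO differentiation (adjusted p = 0.0527). Restricting the start measure to reads placed on the hairpin, or the tail measure to undivided reads, both added after seeing the data, changed no call; the no-mismatch alternative of that measure is its main definition and was not run.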

Other observations

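By cluster, the members' share of all reads ran over the 16 libraries from 0.707% to 3.76% for the HoxC member miR-615-3p, 0.0714% to 0.958% for the HoxB miR-10a arms, 0.102% to 0.222% for the HoxA member miR-196b-5p and 0.00131% to 0.0199% for the names of the HoxD miR-10b arms (0% to 0.00128% for reads that match Mir10b). miR-196a-5p, which can come from HoxB or HoxC, took 0.0790% to 0.302%. Over the 16 libraries the log2 levels had a Pearson r of 0.906 for miR-10a-5p and miR-196b-5p, 0.868 for miR-196a-5p and miR-196b-5p, 0.756 for miR-10a-5p and miR-196a-5p, and -0.22 for miR-10a-5p and miR-615-3p. These libraries share depth and group, so the values describe them and carry no p.

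Relatives of miR-10 outside the Hox clusters, miR-99a-5p, miR-99b-5p and miR-100-5p, were more abundant than miR-10b-5p in every library. miR-100-5p was lower in DM3 in control cells by 1.44 ± 0.32 on the log2 scale (edgeR quasi-likelihood, Benjamini-Hochberg adjusted p = 0.00219) and in tKO cells by 1.17 ± 0.32 (adjusted p = 0.0141). miR-99b-5p was lower by 0.85 (adjusted p = 0.0386) and 0.87 (adjusted p = 0.0461) in the same comparisons. In each of the 4 the groups did not overlap. With a library left out the miR-99b-5p calls were lost in 13 of 16 fits in control (edgeR, adjusted p up to 0.125) and 14 of 16 in tKO (up to 0.214), and the miR-100-5p calls in 0 and 3. Under other processing the miR-99b-5p calls were lost in 7 of 13 alternatives in control and 5 of 13 in tKO. Those of miR-100-5p were lost in 1 and 2 of 13. Between the tKO clones miR-99a-5p was higher in clone 2 by 1.63 ± 0.35 (edgeR, adjusted p = 0.0262). That call was lost in 11 of 16 fits with a library left out (edgeR, adjusted p up to 0.225) and in 1 of 10 alternatives.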
